A study of Bos taurus with 27 samples.

Results

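Hypoblast lineage genes were followed across 27 pools of bovine blastocysts. The 9 genes, GATA4, GATA6, SOX17, PDGFRA, HNF4A, FOXA2, RSPO3, CDH2 and APOA1, were selected by name from the 32637 genes in the table, and each had its own entry. Abundance was expressed as CPM, the reads counted on a gene per 1e6 reads counted on all genes of that pool. Of the 9 genes, 5 (GATA6, PDGFRA, HNF4A, RSPO3 and APOA1) were among the 12310 genes that reached 1 CPM in at least 12 pools. The other 4 (GATA4, CDH2, SOX17 and FOXA2) did not, and are described from their counts.

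Each pool held 2 blastocysts produced in vitro, expanding or expanded and of the best quality score. All of them came from oocytes matured with preovulatory follicular fluid, taken from follicles of either greater or lesser maturity, and fertilized with semen of 1 bull. The pools are named here by their number in the labels. Which fluid and which fertilization replicate each pool belonged to was not assigned here, so the fluids were not compared, and no relation between genes was recomputed within a replicate. Pools had from 10517606 to 44253564 counts in all (median 22293594), so that 1 CPM stood for 10.5 to 44.3 counts and 3 counts for 0.0678 to 0.285 CPM. These limits cover counting error only.

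The hypoblast, or primitive endoderm, is one of the cell types that arise in the inner cell mass, the other being the epiblast, which forms the embryo proper. It lines the blastocyst cavity and later gives the endoderm of the yolk sac. FGF signalling through its receptors favours hypoblast over epiblast, GATA6 acts early in that choice and opposes NANOG, and SOX17, GATA4, FOXA2 and HNF4A belong to the later programme of the cells. PDGFRA is a receptor on the surface of the hypoblast, RSPO3 a secreted enhancer of Wnt signalling, CDH2 an adhesion molecule (N-cadherin) and APOA1 the main protein of high-density lipoprotein, which visceral endoderm and liver secrete.

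The markers of the lineage were only partly present. SOX17 and FOXA2 were at 0 in most pools and GATA4 stayed below 2 CPM, whereas GATA6, PDGFRA and APOA1 were abundant in nearly all. GATA6 and APOA1 are not restricted to the hypoblast, so the 9 genes are treated here by name and not as a measure of hypoblast cells. In pooled whole blastocysts, fewer cells of a type and less RNA per cell cannot be told apart. The epiblast gene NANOG was at 15.3 to 133 CPM with a median of 51.6, SOX2 of the same lineage had a median of 6.86 CPM, and the trophectoderm factor CDX2 had a median of 3.62 CPM.

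Pools 9 and 35 stood apart in these genes. Pool 9 held the lowest CPM of 11.6% and the highest of 7.37% of the 12310 retained genes, where an equal share would be 3.70%, and its total count of 14526367 was not the lowest. It also had the highest summed CPM of 14 leukocyte markers (122, against 24.8 to 102 in the other pools). The same held for the sum of 12 cumulus and granulosa markers (580, against 55.5 to 534). Of the latter sum in pool 9, 517 CPM was the steroidogenic enzyme gene HSD3B1. The cumulus and granulosa sum thus rests mostly on HSD3B1, and it does not show whether the other markers of that list were high in pool 9. Pool 35 held the highest CPM of 5.48% and the lowest of 1.98% of the retained genes, with leukocyte markers at 91.0 CPM. The part of these markers in the results below was not tested, and the results that rest on either pool are given with and without it.

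Among the transcription factors, GATA6 (chromosome 24, 34161968 to 34194339 in ARS-UCD2.0) was the most abundant. Its CPM was lowest in pool 9 at 19.5, next in pool 31 at 98.6, had a median of 211 and was highest in pool 25 at 301. The quartiles were 196 and 282 CPM, and pool 9 was 10.8-fold below the median. Without the lowest and the highest pool the range fell from 15.4-fold to 3.04-fold. A gap of this size was rare: among 3110 genes with a median of at least 50 CPM, 5 had a next-lowest pool 5.06-fold or more above the lowest, and 3 of them (GATA6, TRIM28 and EIF3B) were lowest in pool 9. These 2 other genes were named after their values were seen.

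HNF4A (chromosome 13, 72825641 to 72855373) encodes a nuclear receptor of hepatocytes and visceral endoderm. It was at 2.58 CPM in pool 35, 4.13 CPM in pool 9 and 11.8 CPM in pool 32, had a median of 20.1 CPM, and reached 54.5 CPM in pool 45 and 69.2 CPM in pool 31. Pools 35 and 9 were thus 7.80-fold and 4.87-fold below the median, and pools 9 and 35 were the only ones under 10 CPM. After APOA1, it varied most between pools for its abundance, as described below.

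GATA4 (chromosome 8, 7642415 to 7721284), a zinc finger factor related to GATA6, was counted in all 27 pools but at a low level. Its lowest value was 0.143 CPM in pool 38, from 2 counts, its median was 0.896 CPM and its highest was 1.66 CPM in pool 45. It reached 1 CPM in 10 pools and at least 3 counts in 26.

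SOX17 (chromosome 14, 22229926 to 22231726) and FOXA2 (chromosome 13, 41478502 to 41546053), an SRY-related and a forkhead factor of endoderm, were near the limit of detection. SOX17 had 53 counts over all pools together, none in 14 pools and at least 3 in 6 (pools 12, 13, 23, 35, 36 and 45), with a maximum of 0.756 CPM in pool 35. FOXA2 had 49 counts, none in 19 pools and at least 3 in 5 (pools 13, 23, 35, 36 and 46), with a maximum of 0.740 CPM in pool 13. Both genes had at least 3 counts in the same 4 pools (13, 23, 35 and 36), either had in 7, and 12 pools had no count of either. A count of 0 allows up to 3 counts, which was 0.0687 to 0.285 CPM in the pools without counts of these genes. Pool 35, highest in SOX17, was also highest in the related factor SOX7 at 0.819 CPM and lowest in NANOG.

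The receptor gene PDGFRA (chromosome 6, 69723776 to 69771549) had the narrowest range of the 7 genes counted in all pools, although with both end pools of each gene left out that of GATA6 was narrower (3.04-fold against 3.36-fold). It was lowest in pool 33 at 15.6 CPM and next in pool 35 at 17.3 CPM, had a median of 38.2 CPM and was highest in pool 32 at 62.5 CPM. PDGFA, which encodes a ligand of this receptor, had a median of 42.9 CPM and a range of 25.7 to 69.4 CPM.

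RSPO3 (chromosome 9, 24092390 to 24186517) was at 1.39 CPM in pool 21, had a median of 7.42 CPM and was at 47.7 CPM in pool 13. The next highest value was 17.5 CPM in pool 35, so that pool 13 alone widened the range from 4.52-fold, with both end pools left out, to 34.4-fold. Of the other R-spondin genes, RSPO1 had a median of 0 CPM, RSPO2 of 0.498 CPM and RSPO4 of 0.0720 CPM. LGR4, a receptor for R-spondins, had a median of 11.6 CPM.

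The N-cadherin gene CDH2 (chromosome 24, 28655756 to 28904115) was counted in every pool and had the widest range of the 7 genes counted in all pools, 119-fold. It was lowest in pool 1 at 0.0446 CPM, from 1 count, had a median of 0.918 CPM, and was highest in pool 38 at 5.31 CPM, with 11 pools at 1 CPM or more. The low end of this range rests on single counts. CDH1, the epithelial cadherin, had a median of 14.3 CPM and a range of 6.96 to 22.0 CPM.

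APOA1 (chromosome 15, 27490619 to 27505478) carried 73.4% of all counts of the 9 genes, and GATA6 a further 19.8%. It was lowest in pool 32 at 203 CPM and next in pool 35 at 268 CPM, had a median of 735 CPM, and was highest in pool 9 at 1904 CPM after pool 45 at 1623 CPM. The range was 9.39-fold, and neither end pool stood far from the next. Its abundance was not shared by the other apolipoprotein and carrier genes examined. Of 18 such genes only APOM and MTTP were retained, with medians of 9.73 and 1.14 CPM, and APOA2, APOB, TTR and ALB each had a median of 0 CPM.

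**Figure D1:**
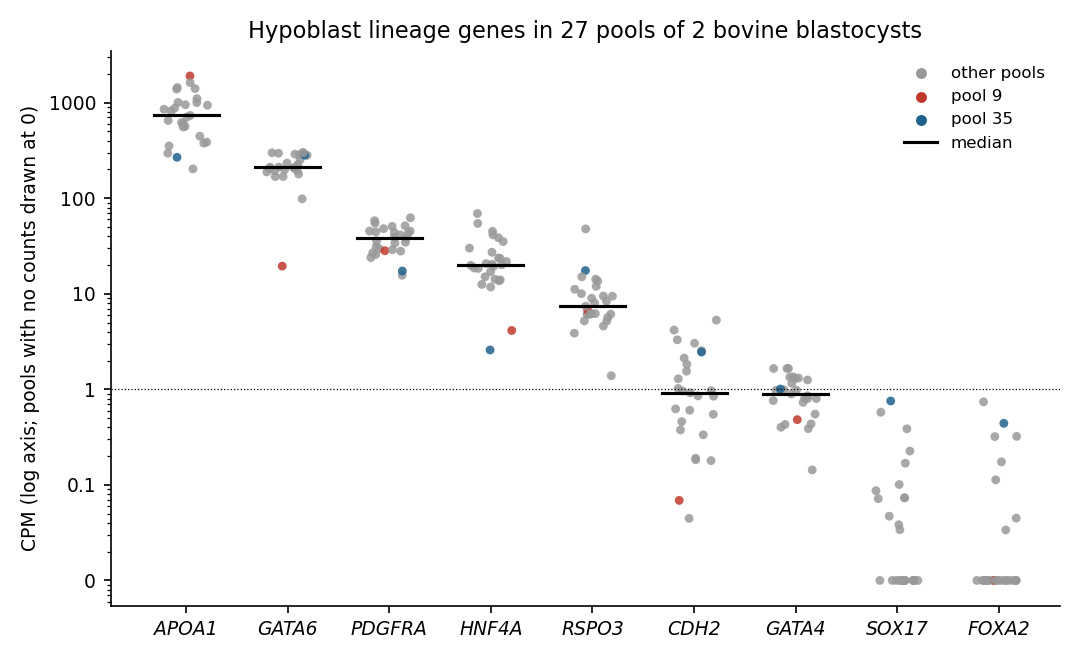
CPM of the 9 genes in each of the 27 pools, on a log axis with pools without counts drawn at 0; black bars are medians and the dotted line is 1 CPM. GATA6 was lowest in pool 9 (red, 19.5 CPM), HNF4A was lowest in pool 35 (blue, 2.58 CPM) and then pool 9, and SOX17 and FOXA2 stayed below 1 CPM in every pool.

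The order of the 9 genes by CPM was largely the same in each pool. CPM counts reads at the 3′ end and was not divided by transcript length, so the order is one of read counts. APOA1 exceeded GATA6 in 26 of 27 pools (all but pool 35; exact two-sided sign test, p = 4.17e-07), with a 3.48-fold ratio of medians. GATA6 exceeded PDGFRA in 26 pools, all but pool 9, and the ratio of medians was 5.53. PDGFRA exceeded HNF4A in 23 pools (p = 0.000311), with pools 31, 33, 42 and 45 as exceptions, and HNF4A exceeded RSPO3 in 24 (p = 4.92e-05), with pools 9, 13 and 35 as exceptions. RSPO3 exceeded CDH2, and GATA4 exceeded SOX17, in all 27 pools. CDH2 and GATA4 did not differ beyond their spread, with CDH2 higher in 13 pools and GATA4 in 14 (p = 1). SOX17 and FOXA2 did not either, since SOX17 was higher in 11 pools, FOXA2 in 4 and both were 0 in 12 (p = 0.118).

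Ratios within a pool also put pools 9 and 35 at the ends. This follows in part from their extreme CPM given above, so the ratios are a description. The ratio of APOA1 to GATA6 had a median of 3.31, was 0.949 in pool 35, and was 97.7 in pool 9, where the next highest, in pool 31, was 14.1. The ratio of GATA6 to HNF4A was 109 in pool 35 against a median of 10.5 and a next highest value of 20.2. The ratio of GATA6 to NANOG, the opposed pair of the hypoblast and epiblast choice, had a median of 4.25, was lowest in pool 9 at 0.377 and was highest in pool 35 at 18.5.

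The spread between pools beyond counting error was estimated in edgeR as the biological coefficient of variation (BCV), without groups. The median over the retained genes was 33.7%. APOA1 had a BCV of 51.9%, 2.41 times the 21.5% that the trend gave for genes of its abundance. HNF4A had 58.9% against a trend of 32.3%, GATA6 36.8% against 22.8%, and RSPO3 58.3% against 43.8%. PDGFRA, with 32.5% against 29.2%, was the closest to its trend. The unassigned fluid and replicate of each pool are part of this spread.

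Whether the hypoblast genes rose and fell together was examined in the 21 pairs of the 7 genes counted in all pools, by correlation of log2(CPM + 1) with 100000 permutations, two-sided. For the 5 retained genes, each gene was also tested in edgeR as a log2 slope on log2(CPM + 1) of another, with Benjamini-Hochberg adjustment over all 12309 other retained genes. The 10 pairs of retained genes had Spearman's rho between -0.233 and 0.484 with a median of -0.00519, beside a median of 0.0250 over all 75761895 pairs of retained genes. None of the 20 slopes passed an adjusted p of 0.05. Over all genes the share that passed was 3.33% on GATA6, 0.0894% on PDGFRA, 2.78% on HNF4A, 0% on RSPO3 and 2.88% on APOA1.

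HNF4A and APOA1 had the highest rho of the 10 pairs. Spearman's rho was 0.484 (permutation p = 0.0115) and Pearson's r was 0.416 (permutation p = 0.0312), and 2.26% of all pairs of retained genes had a rho as high. Without the 2 pools farthest from the median of HNF4A, which were pools 35 and 9, r was 0.635. The slope of HNF4A on APOA1 was 0.65 ± 0.19 (SE, n = 27 pools, edgeR adjusted p = 0.0566), and that of APOA1 on HNF4A was 0.19 ± 0.14 (edgeR adjusted p = 0.448). Without pool 9 rho was 0.645 and the slopes were 0.78 (edgeR adjusted p = 0.00638) and 0.65 (edgeR adjusted p = 0.00844), with 2.27% of all genes passing on APOA1 and 3.42% on HNF4A. With pool 9 kept, HNF4A on APOA1 also passed with DESeq2 (adjusted p = 0.0165) and with all counted genes in edgeR (adjusted p = 0.0353), at a slope of 0.66. Over all alternatives the adjusted p ranged from 0.00638 to 0.224 for HNF4A on APOA1 and from 0.00844 to 0.677 for APOA1 on HNF4A.

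GATA6 and APOA1 had a Pearson's r of -0.405 (permutation p = 0.0291) that fell to -0.0800 without the 2 pools farthest from the median of GATA6, pools 9 and 31, so it rests on those pools. Their Spearman's rho was -0.201 (permutation p = 0.315) and the slope of APOA1 on GATA6 was -0.44 ± 0.16 (SE, edgeR adjusted p = 0.129). GATA6 and PDGFRA, the early factor and the receptor, had a rho of -0.0201 (permutation p = 0.922), an r of 0.0651 (permutation p = 0.754), and a slope of PDGFRA on GATA6 of 0.03 ± 0.13 (SE, edgeR adjusted p = 0.938). GATA6 and RSPO3 had a rho of 0.385 (permutation p = 0.0480) but an r of 0.229 (permutation p = 0.183), and PDGFRA and HNF4A an r of 0.427 (permutation p = 0.0259) but a rho of 0.344 (permutation p = 0.0801). Neither pair passed in edgeR, with adjusted p of 0.445 and 0.982 for the former and 0.445 and 0.143 for the latter.

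Of the low genes, GATA4 had a rho of 0.428 with APOA1 (permutation p = 0.0262, r = 0.351, permutation p = 0.0720) and of 0.408 with HNF4A (permutation p = 0.0349, r = 0.341, permutation p = 0.0821). CDH2 had a rho of 0.402 with PDGFRA (permutation p = 0.0386, r = 0.321, permutation p = 0.103). When all genes with a count were fitted, the slope of GATA4 was 0.37 ± 0.23 on APOA1 (SE, edgeR adjusted p = 0.464) and 0.28 ± 0.19 on HNF4A (SE, edgeR adjusted p = 0.466), and that of CDH2 on PDGFRA was 0.76 ± 0.50 (SE, edgeR adjusted p = 0.567). In that fit FOXA2, with its 49 counts and none in 19 pools, had a slope of 4.03 ± 1.12 on GATA6 (SE, edgeR adjusted p = 0.0359), where 3.9% of all genes passed, and SOX17 had 1.75 ± 0.96 (SE, edgeR adjusted p = 0.406). These permutation p-values are not adjusted over the 21 pairs.

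**Figure D2:**
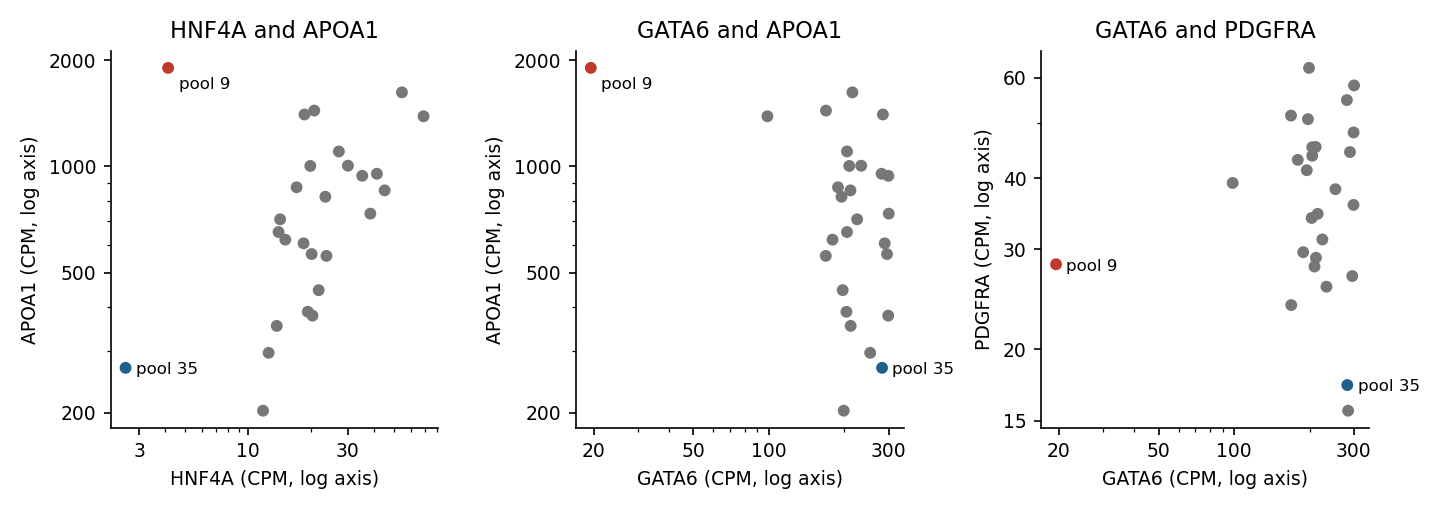
CPM of HNF4A and APOA1, GATA6 and APOA1, and GATA6 and PDGFRA, each point 1 of 27 pools, on log axes. Pool 9 (red) had high APOA1 at low HNF4A (rho 0.484 with it, 0.645 without), and GATA6 lay at 98.6 CPM or more outside pool 9, with a rho of -0.0201 to PDGFRA.

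The number of genes related to GATA6 depended on pool 9. A slope that passed the adjusted p of 0.05 was found for 410 genes, 303 positive (2.46% of all genes) and 107 negative (0.869%), but for 19 genes without pool 9, of which 8 were among the 410. The split between directions was 624 to 42 with limma on log2(CPM + 1). Of 127 genes in the lists examined (other hypoblast factors, endocytic receptors, apolipoproteins, basement membrane, FGF and PDGF signalling, Wnt pathway, cadherins, epiblast, trophectoderm, leukocytes and cumulus cells), 7 passed, or 5.51%, and all 7 were lowest in pool 9. FGFR3, a receptor for FGF, had a slope of 0.67 ± 0.12 (SE, edgeR adjusted p = 0.000634), and COL4A1, a chain of the type IV collagen of basement membranes, 0.62 ± 0.13 (edgeR adjusted p = 0.00427). The other 5 were the epiblast gene UTF1 (slope 1.06), the Wnt pathway genes LGR4 (0.58) and AXIN2 (0.53), and the trophectoderm factors GATA2 (0.46) and TEAD4 (0.38). Without pool 9 none of the 7 passed, and their adjusted p in edgeR lay between 0.111 and 0.577. The slopes of COL4A1 (0.70) and UTF1 (0.99) were then about as large as with it, and those of FGFR3 (0.33), LGR4 (0.31), AXIN2 (0.31), GATA2 (0.28) and TEAD4 (0.23) were smaller. AXIN2 is reported by the study as more abundant with fluid of greater maturity, and whether fluid contributes to its slope was not tested.

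NANOG, which opposes GATA6 in the inner cell mass, did not pass on GATA6, with a slope of -0.18 ± 0.27 (SE, edgeR adjusted p = 0.802). SOX2 had a slope of 0.31 ± 0.16 (SE, edgeR adjusted p = 0.340) and CDX2 of -0.15 ± 0.17 (SE, edgeR adjusted p = 0.717). None of the 11 retained genes among 18 other hypoblast factors passed on GATA6, PDGFRA, HNF4A or RSPO3 with all pools. Without pool 9, 1 of them passed on HNF4A, FLRT3, with a slope of 0.45 (edgeR adjusted p = 0.0122) against 0.28 with all pools, and 1 passed with limma. Their median slope on GATA6 was 0.01, beside a median of 0.00334 over all genes.

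Few of the retained genes passed in edgeR on PDGFRA, and none on RSPO3. On PDGFRA 11 genes passed, 5 positive (0.0406%) and 6 negative (0.0487%), and 1 passed without pool 35. With DESeq2 82 passed, and with all counted genes in edgeR 547 of 24637 did. None of the 17 retained genes of FGF and PDGF signalling was among the 11. On RSPO3 none of the 12309 retained genes passed in edgeR. An unadjusted p of 0.05 or less was found for 598 of them, no more than that threshold alone would let through. None passed with DESeq2 or limma, and 255 of 24637 passed in edgeR with all counted genes. The 16 retained Wnt pathway genes thus included none that passed on RSPO3, and their median slope was 0.02 beside -0.00705 over all genes.

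Some genes of the basement membrane, the extracellular sheet that hypoblast and trophectoderm cells lay down, rose with HNF4A. Of 342 genes that passed on HNF4A, 236 were positive and 106 negative (1.92% and 0.861% of all genes), and the split was 404 to 315 with DESeq2 and 178 to 294 with limma. Of 17 retained basement membrane genes, 7 rose (between 6 and 8 over the alternatives), none fell and 10 did not pass. The median slope of the 17 was 0.03, beside -0.00729 over all genes. NID1, encoding the linker protein nidogen, was at 3.53 CPM in pool 35, had a median of 22.3 CPM and reached 69.6 CPM in pool 31, the pools that were lowest and highest in HNF4A. Its slope was 0.84 ± 0.13 (SE, n = 27 pools, edgeR adjusted p = 0.000753). AGRN, encoding the heparan sulphate proteoglycan agrin, had a slope of 0.46 ± 0.08 (SE, edgeR adjusted p = 0.00364), and COL18A1, encoding collagen XVIII, of 1.04 ± 0.18 (SE, edgeR adjusted p = 0.00414). FN1, encoding fibronectin, was the most abundant of the list with a median of 712 CPM and had a shallower slope of 0.30 ± 0.06 (SE, edgeR adjusted p = 0.0101). The other 3 that rose were P4HA2, COL4A2 and LAMA5, of which COL4A2 did not pass without pool 9 (slope 0.64 against 0.76, edgeR adjusted p = 0.0577). The laminin genes LAMA1, LAMB1 and LAMC1 did not pass. LAMA1 had a slope of 0.01, and that of LAMB1 was negative at -0.21 ± 0.09 (SE, edgeR adjusted p = 0.207).

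Single genes of other lists also rose with HNF4A. SCARB1, the receptor for high-density lipoprotein, had a slope of 0.45 ± 0.08 (SE, edgeR adjusted p = 0.00590), and the FGF feedback inhibitor gene SPRY2 of 0.51 ± 0.11 (SE, edgeR adjusted p = 0.0127). CDH17, an intestinal and liver cadherin, had a median of 1.32 CPM and a slope of 1.95 ± 0.48 (SE, edgeR adjusted p = 0.0249). The trophectoderm factor gene GATA3 had a slope of 0.23 ± 0.05 (SE, edgeR adjusted p = 0.0167). Of 21 retained trophectoderm genes, it was the only one to pass when the retained genes were fitted in edgeR with all pools. The number that rose was 2 with DESeq2, 2 with limma, 4 without pool 9, 4 without pool 35 and 6 without both, and none fell. In all, 11 of the 127 list genes passed, or 8.66%, and 10 did so without pool 9 and 11 without pool 35.

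**Figure D3:**
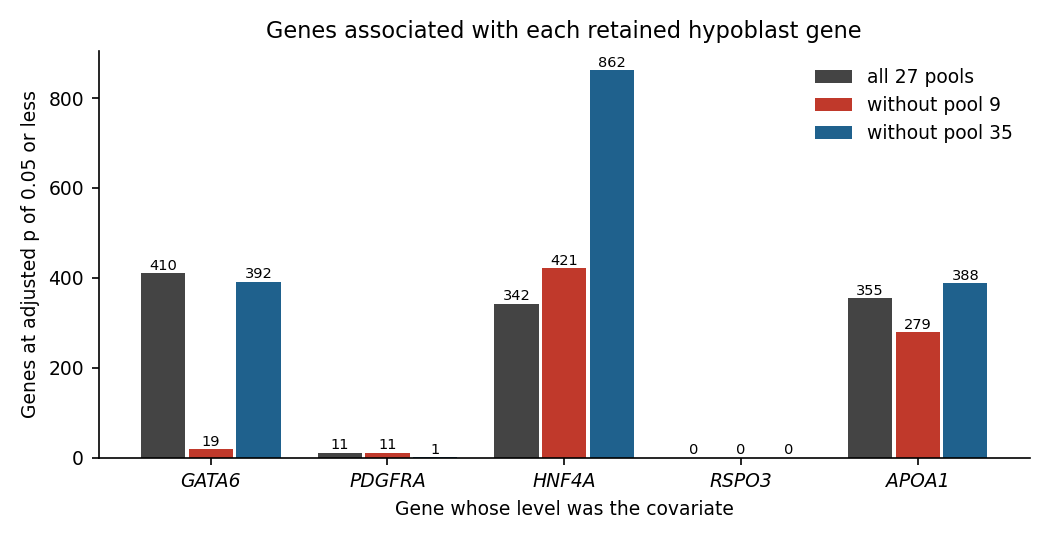
Number of genes, of 12309 tested, whose slope on each of the 5 retained hypoblast genes had an adjusted p of 0.05 or less in edgeR, with all 27 pools and without pool 9 or pool 35. The count on GATA6 fell from 410 to 19 without pool 9, and that on HNF4A rose from 342 to 862 without pool 35.

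Some trophectoderm genes, which mark the outer epithelium of the blastocyst, rose with APOA1. Of the epiblast genes 2 fell and 1, NANOG, rose. On APOA1 355 genes passed, 212 positive and 143 negative (1.72% and 1.16% of all genes), and the split was 188 to 293 with limma. Of 21 retained trophectoderm genes, 5 rose (between 3 and 6 over the alternatives), none fell and 16 did not pass. The trophectoderm factors GATA2, GATA3 and TEAD4 were among the 16 that did not pass. Over the alternatives between 0 and 2 fell, with 2 for DESeq2 and 1 for limma. The median slope of the 21 was 0.29 beside -0.000745 over all genes. SSLP1, a secreted protein gene expressed in the trophoblast, was at 7.12 CPM in pool 35, had a median of 38.1 CPM and reached 223 CPM in pool 33, with a slope of 1.03 ± 0.14 (SE, n = 27 pools, edgeR adjusted p = 4.68e-05). The keratin gene KRT19 had a median of 1229 CPM and a slope of 0.60 ± 0.11 (SE, edgeR adjusted p = 0.00275). SFN, encoding the epithelial protein stratifin, had a slope of 0.54 ± 0.12 (SE, edgeR adjusted p = 0.0110). TKDP1, a trophoblast Kunitz domain protein gene, had a slope of 1.76 ± 0.35 (SE, edgeR adjusted p = 0.00411) and was highest in pool 9 at 328 CPM. The fifth was IFNT3, an interferon tau gene, which was named after its value was seen. It was also highest in pool 9, at 580 CPM against a median of 40.6 CPM, and its slope of 1.06 ± 0.27 (SE, edgeR adjusted p = 0.0240) did not pass without that pool (slope 0.74, edgeR adjusted p = 0.233). Interferon tau genes are near-identical copies that share reads, so the assignment to IFNT3 is uncertain. The study reports TKDP1 as more abundant with fluid of lesser maturity, and the part of fluid in its slope was not tested.

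Of 14 retained epiblast genes, ZFP42 and POU5F1 fell with APOA1 and NANOG rose. ZFP42 was lowest in pool 31 at 232 CPM, had a median of 379 CPM and was highest in pool 32 at 669 CPM, the pool lowest in APOA1. Its slope was -0.35 ± 0.06 (SE, edgeR adjusted p = 0.00119), and it passed in 10 of 10 alternatives. POU5F1, encoding the pluripotency factor OCT4, was likewise lowest in pool 31 and highest in pool 32, and had a slope of -0.35 ± 0.09 (SE, edgeR adjusted p = 0.0319). NANOG had a slope of 0.68 ± 0.19 (SE, edgeR adjusted p = 0.0487), passed in 6 of 10 alternatives and did not pass without pool 35 (slope 0.61, edgeR adjusted p = 0.0912), the pool in which it was lowest. The 3 genes of this list did not move in 1 direction with APOA1, and its median slope was -0.06.

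Single genes of other lists also rose or fell with APOA1. MTTP, which loads lipid onto apolipoprotein B, had a median of 1.14 CPM, no count in 6 pools and a slope of 2.10 ± 0.55 (SE, edgeR adjusted p = 0.0326). Among the other hypoblast factors LEFTY2, a Nodal inhibitor, was the only one to pass in edgeR with all pools, with a slope of 1.08 ± 0.31 (SE, edgeR adjusted p = 0.0467). With DESeq2, 3 of these factors passed. CDH17 also rose with APOA1, with a slope of 1.61 ± 0.45 (SE, edgeR adjusted p = 0.0445). Of the basement membrane genes, LAMA5 rose (slope 0.29), whereas NID2 (slope -0.45) and SPARC (slope -0.26) fell. MTTP, LEFTY2, CDH17 and LAMA5 did not pass without pool 35, with edgeR adjusted p of 0.0519, 0.0590, 0.0682 and 0.0520, although their slopes were little changed at 2.03, 1.11, 1.49 and 0.31. NID2 and SPARC did not pass without pool 9, with slopes of -0.43 and -0.22 and edgeR adjusted p of 0.0642 and 0.117.

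No leukocyte marker passed on any of the 5 genes with all pools in edgeR. Of the 9 retained, 2 fell with HNF4A with DESeq2, with limma and without pool 35, and 1 fell with PDGFRA with DESeq2. Of 6 retained cumulus and granulosa markers, CYP11A1, which encodes the first enzyme of steroid synthesis, rose with APOA1 (slope 0.60 ± 0.16, SE, edgeR adjusted p = 0.0365) but did not pass without pool 9 (slope 0.57, edgeR adjusted p = 0.0838). None of the 12310 retained genes, and so none of the 5 hypoblast genes, passed in edgeR on the total count of the pool (340 had an unadjusted p of at most 0.05, and 0 also with the normalization of DESeq2).

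**Figure D4:**
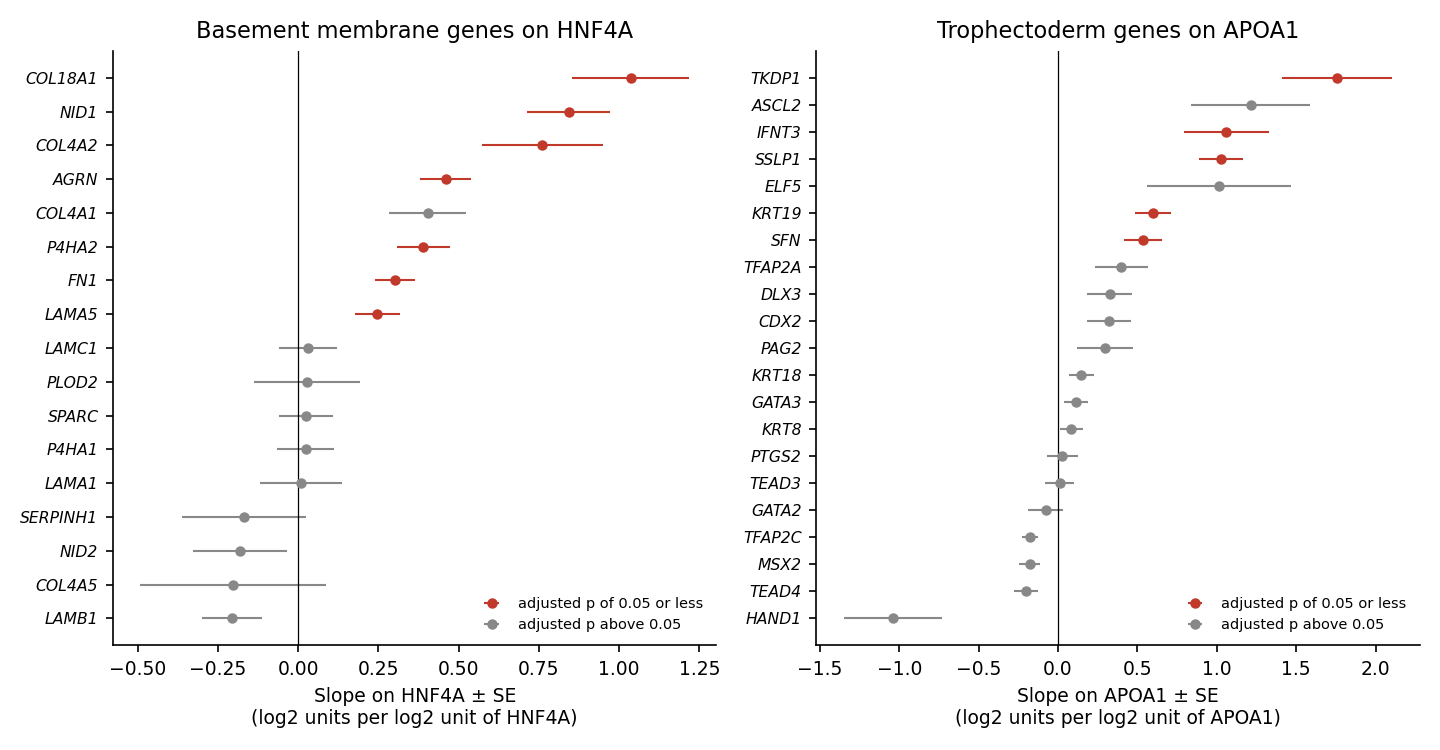
Slopes ± SE over 27 pools of the 17 retained basement membrane genes on HNF4A (left) and the 21 retained trophectoderm genes on APOA1 (right), in log2 units per log2 unit, with genes at an adjusted p of 0.05 or less in red. On HNF4A 7 genes rose, led in size by COL18A1 (1.04) and NID1 (0.84), and on APOA1 5 rose, led by TKDP1 (1.76).

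The genes most like each hypoblast gene were found by Spearman's rho over the 27 pools among 8922 genes with a mean of at least 5 CPM. For GATA6 they were RBM15B (rho 0.824), STARD7 (0.816) and C21H15orf39 (0.796). For PDGFRA they were SIVA1 (0.733), BLTP3B (0.719) and ARHGAP8 (0.708). HNF4A was most like PGAP6 (0.873), AGRN of the basement membrane list (0.869) and the sodium-proton exchanger gene SLC9A3 (0.863). APOA1 was most like FTL, the ferritin light chain gene (0.889), the choline transporter-like gene SLC44A4 (0.882) and CD63, a tetraspanin of endosomes (0.863). The closest to RSPO3 were IFT20 (0.675), STAM (0.659) and FNIP2 (0.653), lower than for the other 4 genes. Since these genes were chosen for their rho, the values are a description.

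The 5 retained genes shared few partners, and the highest median rho over the 5 was 0.472, for FN1, with single values between -0.0134 and 0.524. After it came PMM2 (0.463), MAP4 (0.449), SF3B2 (0.446), OSBPL6 (0.440), FLRT3 (0.436), MTCH1 (0.435), ISYNA1 (0.424), PAXBP1 (0.416) and TBC1D10B (0.413). FLRT3, of the list of other hypoblast factors, encodes a membrane protein of visceral endoderm, had a median of 32.3 CPM and was lowest in pool 35 at 9.07 CPM.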

How the data were processed

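RNA from 27 pools of 2 blastocysts was converted with a 3′ cDNA kit (SMART-Seq v4 3′ DE) and sequenced. The authors used fastp to trim the forward reads, STAR to align them with ARS-UCD2.0, SAMtools to sort them and featureCounts to count them per gene, and they deposited raw counts of 32637 genes. Versions and the annotation release are not given in the sources used here. The counts are reads and not molecules, and reads at the 3′ end depend on the annotated transcript ends.

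All 27 columns were used. Treatment and fertilization replicate were not assigned to pools, so no groups were compared. The p-values of slopes, correlations and sign tests treat the 27 pools as independent, although pools shared fluids and fertilization replicates. The part of a shared fluid or replicate in these relations was not tested. Genes were retained where 12 pools or more reached 1 CPM, and the total count was between 10517606 and 44253564. Every retained gene was regressed on log2(CPM + 1) of each retained hypoblast gene with edgeR 4.0.16 (quasi-likelihood test, TMM normalization, R 4.3.3), with Benjamini-Hochberg adjustment at 0.05. The SE of a slope was its size divided by the square root of F. Pools were compared by chi-square over genes, with 23.9 per degree of freedom as the lowest value, and none was a duplicate. DESeq2 1.42.0, limma 3.58.1, other normalizations, filters, pseudocounts and left-out pools were alternatives. The regression was tested on data simulated with the GATA6 levels of the 27 pools. It recovered 49 of 100 slopes of size 0.5 and 74 of 100 of size 1, with 8 false calls. A slope that did not pass is thus not shown to be absent.

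The 9 genes and the gene lists were chosen with earlier results of these data known. Named genes were the 9, up to 4 genes per list with the smallest adjusted p on a hypoblast gene, NANOG, SOX2 and CDX2, the 3 genes most like each by rho and the 10 with the highest median rho. PDGFA, LGR4, CDH1, SOX7, HSD3B1, the R-spondin genes, the carrier genes at 0, and the remaining basement membrane genes are named as background to the 9 or to a count. Positions are those of RefSeq on ARS-UCD2.0.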

Additional observations from a re-analysis of the deposited data

How the results depend on the processing

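No paired analysis was possible because the labels give neither groups nor replicate numbers. CPM could not be divided by mRNA length, since lengths were not used here, so that setting was not run. The order of the 9 genes was the same with means, TMM or DESeq2 scaling. Leaving out pools 9 and 35, singly or together, was chosen after seeing the data. The number of genes that passed on GATA6 (410) was 961 with all counted genes, 710 with DESeq2, 666 with limma, 7 without the 2 pools farthest from the median, 19 without pool 9 and 4 without pools 9 and 35. On PDGFRA (11) it was 547 with all counted genes, 82 with DESeq2, 7 with the total count as covariate, 0 without the 2 farthest pools, 1 without pool 35 and 0 without both pools. On HNF4A (342) it was 900 with all counted genes, 719 with DESeq2, 823 without the 2 farthest pools, which are pools 9 and 35, and 862 without pool 35. On APOA1 (355) it was 1125 with all counted genes, 552 with DESeq2 and 145 without the 2 farthest pools, 32 and 35. On RSPO3 (0) it was 255 with all counted genes. The cause of these differences was not tested. With all counted genes 24637 genes were tested instead of 12309, and the share that passed was higher as well. It went from 3.33% to 3.90% on GATA6, from 0.0894% to 2.22% on PDGFRA and from 2.78% to 3.65% on HNF4A. On RSPO3 it went from 0% to 1.04%, and on APOA1 from 2.88% to 4.57%. Of 10 pairs of retained genes, 2 had a permutation p of 0.05 or less for rho, against 1 without the 2 farthest pools and 1 without pools 9 and 35. The rho of GATA6 and RSPO3 lost that level under 4 alternatives. No rho with a permutation p of 0.05 or less changed sign. Of the slopes that had not passed, that of HNF4A on GATA6 changed sign without pool 9, from 0.09 to -0.65 (edgeR adjusted p = 0.423). That of PDGFRA on GATA6 went from 0.03 to -0.20 (edgeR adjusted p = 0.768), and neither passed without pool 9. GATA4, CDH2, SOX17 and FOXA2 are limited by depth, since 3 counts stood for up to 0.285 CPM.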
